A study of Caenorhabditis elegans with 14 samples.

Results

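The peaks described here lay in the mitochondrial genome of Caenorhabditis elegans. They came from 7 lists of crosslinking peaks, 1 for each seCLIP library, and all listed peaks on the mitochondrial chromosome were taken with no filter on enrichment or p-value. This gave 498 of 162556 listed peaks. seCLIP sequences the RNA that ultraviolet light has joined to a precipitated protein, and an input library made from the lysate before precipitation serves as the reference. EIF-3.G, the protein studied, belongs to the initiation factor eIF3 and holds an RNA recognition motif.

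All tagged forms carried 3xFLAG and were expressed from Punc-17β, a promoter active in cholinergic motor neurons. The intact form, called (+), was Punc-17beta::3xFLAG::EIF-3.G(+) (juSi364) in worms with acr-2(n2420). The C130Y form was juSi365, in worms that carried both eif-3.G(ju807) and acr-2(n2420). The form without the RNA recognition motif, called ΔRRM, was juSi368 with acr-2(n2420). Each tagged form had 2 CLIP libraries, and wild type N2 worms with neither transgene nor acr-2 allele had 1, which gives 14 samples with the inputs. Transgene and background therefore changed together in any comparison with the no-transgene library or with C130Y. The antibody label of the no-transgene CLIP library is anti-FLAG, while its source label names an IgG control. Mixed-stage worms were crosslinked whole at 3 kJ/m2, so the tagged protein came from a few cells while the input held RNA of all tissues. The labels do not state that replicates were separate cultures, so the p-values measure a spread between libraries that may be technical.

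The mitochondrial genome is a small circle that is copied into long RNAs holding several genes, from which the tRNAs are cut out. It encodes the rRNAs of the organelle's own ribosome, a set of tRNAs, and protein subunits of the respiratory chain and of ATP synthase. In C. elegans all of these genes lie on the same strand. eIF3 is known as a factor of cytosolic translation, where it joins the small ribosomal subunit. Mitochondrial translation takes place inside the organelle and uses other initiation factors.

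The (+) lists held 82 and 73 mitochondrial peaks and the C130Y lists 83 and 85. The ΔRRM lists held 64 and 80, and the no-transgene list 31. All 498 lay on the plus strand, the strand of the 36 annotated mitochondrial genes, and none on the minus strand. In the 6 tagged libraries the peaks reached from nt 76 to 79 at the start to nt 12831 to 13014 at the end, in the coordinates of build ce10. Without a transgene they reached from nt 980 to nt 11198. Median lengths were 28 to 30 nt in the tagged libraries and 38 nt without a transgene. The median of the nuclear peaks was 29 to 34 nt in the tagged libraries and 37 nt in the no-transgene library. The mitochondrial median was shorter in 6 of 7 libraries, by 2.36 ± 1.89 nt on average (SD, n = 7). This did not pass after adjustment over 7 within-library comparisons (exact two-sided sign-flip permutation test, p = 0.0469, adjusted p = 0.0547).

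Mitochondrial peaks were a small part of each list. They made up 0.238% and 0.286% of the listed peaks in (+), 0.312% and 0.234% with C130Y, 0.581% and 0.373% with ΔRRM, and 0.432% without a transgene (95% Wilson interval 0.305% to 0.613%). Both ΔRRM shares lay above all 4 shares of the other tagged forms, and the (+) and C130Y shares overlapped. The lists differed in length, from 7170 peaks without a transgene and 11021 in the shorter ΔRRM list to 36324, and that part in the shares was not tested. With 2 libraries per form an exact permutation test cannot go below p = 0.33. The ΔRRM mean share was 0.215 percentage points above that of (+) and 0.204 above that of C130Y, each at this smallest p of the exact permutation test (adjusted p = 0.444 over 12 comparisons between forms).

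Each listed peak has a log2 enrichment, the share of CLIP reads in the peak over the share of input reads, as given by the authors. A value of 0 means equal shares. Whether a value reflects more protein on the RNA, more RNA per cell or more of the cells that hold it cannot be told apart in lysates of whole worms. Median log2 enrichment over the mitochondrial peaks was 0.84 and −0.65 in the (+) libraries, 0.14 and 0.28 with C130Y, 2.07 and 1.22 with ΔRRM and 0.02 without a transgene. The nuclear peaks of the same libraries had medians of 0.16 and 0.30, 0.83 and 0.54, 2.10 and 1.29, and 1.74. Both ΔRRM libraries were highest among the tagged libraries for mitochondrial and for nuclear peaks alike. The mitochondrial median was above the nuclear median in (+) replicate 1, by 0.68, and below it in the other 6 libraries. The mean difference was −0.43 ± 0.77 (SD, n = 7), which did not pass (exact sign-flip permutation test, p = 0.141, adjusted p = 0.141). Its direction depended on which peaks were used. Over peaks with at least 10 input reads, a minimum chosen after the values were seen, the mean difference was 0.15 (exact sign-flip permutation test, p = 0.5).

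Enriched peaks were those that reached both a log2 of 1 and a −log10 p-value of 3. By this rule 19 and 10 mitochondrial peaks were enriched with (+), 15 and 17 with C130Y, 43 and 31 with ΔRRM and 6 without a transgene. These thresholds called 1.86% and 2.55% of all listed peaks in (+), 4.44% and 2.64% with C130Y, 16.0% and 5.34% with ΔRRM and 8.58% without a transgene. Among mitochondrial peaks the shares were 23.2% (95% Wilson interval 15.4% to 33.4%) and 13.7% (7.61% to 23.4%) in (+). They were 18.1% (11.3% to 27.7%) and 20% (12.9% to 29.7%) in C130Y. In ΔRRM they were 67.2% (55.0% to 77.4%) and 38.8% (28.8% to 49.7%), and without a transgene 19.4% (9.19% to 36.3%). The mitochondrial share was above the nuclear share in 7 of 7 libraries, by 22.8 ± 14.9 percentage points (SD, n = 7). An exact two-sided sign-flip permutation test gave p = 0.0156, the smallest it can give with 7 libraries, and adjusted p = 0.0273.

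This difference rested on the p-value minimum. With the log2 minimum alone the mitochondrial share was 13.0 percentage points above the nuclear share in (+) replicate 1 and below it in the other 6 libraries, at differences of −38.8 to −4.63 points, with a mean of −11.0 (exact sign-flip permutation test, p = 0.109). Mitochondrial peaks held more reads, with medians of 26 to 67 CLIP reads in the tagged libraries and 12 without a transgene, against 4 to 6 for nuclear peaks in the 7 libraries. These medians cover peaks whose reads gave the deposited p-value, which were 21 of 73 mitochondrial peaks in (+) replicate 2 and 14 of 31 without a transgene. With lower bounds added for unmatched peaks whose p-value lay inside the limits of the deposited scale, the medians were at least 26 to 61 and 12. Peaks with a p-value at either limit of that scale were left out of both sets of medians. No median of CLIP reads was taken over all mitochondrial peaks. Among peaks with at least 10 input reads the mitochondrial share was higher in 6 of 7 libraries. In (+) the points of difference were 14.5 and 4.37, in C130Y 5.63 and 5.46, and in ΔRRM 33.5 and 20.6. In the no-transgene library the mitochondrial share was 13.0% against 20.96% of nuclear peaks, a difference of −7.91 points. The mean over the libraries was then 10.9 points (exact sign-flip permutation test, p = 0.0781).

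Peaks differed by the kind of gene they lay in. Genes were named by position from an annotation of assembly WBcel235, which is not the build of the files, and the match of the 2 coordinate systems was not checked on a ce10 annotation. No peak lay outside an annotated gene. The 12 protein-coding genes held 316 peaks, of which 75 were enriched, and each of these genes had at least 1 enriched peak. The 2 rRNA genes held 118 peaks with 12 enriched. Of the 22 tRNA genes, 11 held the 64 tRNA peaks, and 54 of those were enriched.

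**Figure D1:**
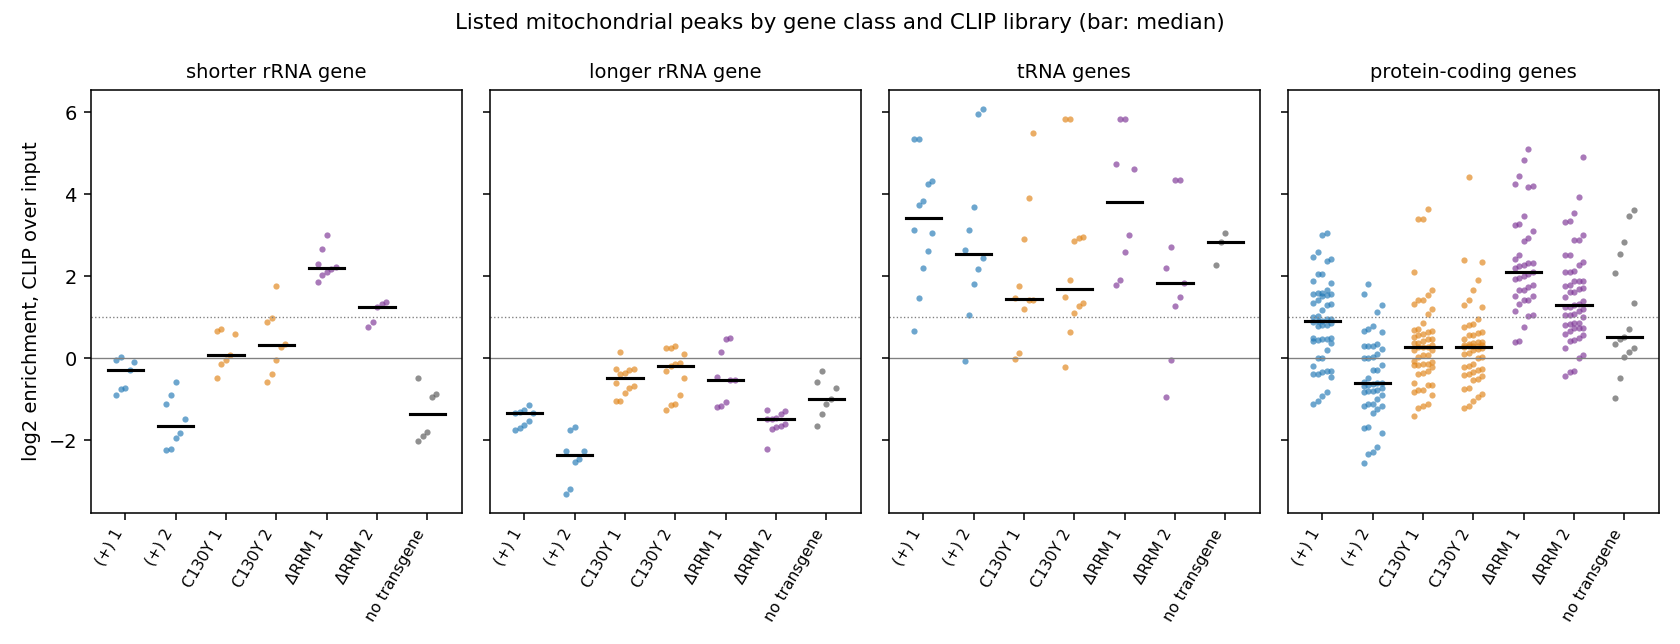
Log2 enrichment of CLIP over input (vertical axis) for each listed mitochondrial peak, by gene class (panels) and CLIP library (horizontal axis); points are peaks, bars are medians, the solid line is 0 and the dotted line the log2 minimum of 1. Peaks of tRNA genes had medians of 1.45 to 3.82, and peaks of the longer rRNA gene had medians below 0 in all 7 libraries.

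The tRNA genes had the highest values of the classes. Their median log2 enrichment was 3.43 and 2.55 with (+), 1.45 and 1.70 with C130Y, 3.82 and 1.84 with ΔRRM and 2.83 without a transgene. Protein-coding genes had medians of 0.91 and −0.61, 0.27 and 0.28, 2.10 and 1.29, and 0.52 in the same order. The tRNA median was higher in 7 of 7 libraries, by 1.84 ± 0.89 (SD, n = 7; exact sign-flip permutation test, p = 0.0156, adjusted p = 0.0273). This comparison was chosen after the values were seen. The no-transgene library showed it too, with a difference of 2.32 over 3 tRNA peaks. The median over peaks of both rRNA genes lay below that of protein-coding genes in 7 of 7 libraries. The difference was −1.48 ± 0.81 (SD, n = 7, exact sign-flip permutation test, p = 0.0156, adjusted p = 0.0273). By gene, this held in 7 of 7 libraries for the longer rRNA gene only. The shorter gene had 2.20 against a coding median of 2.10 in ΔRRM replicate 1 and 1.25 against 1.29 in replicate 2. It had 0.31 against 0.28 in C130Y replicate 2. It lay below the coding median in C130Y replicate 1, at 0.07 against 0.27, in both (+) libraries and without a transgene.

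The tRNA genes are known in the annotation by identifier only. WBGene00014455 held the most enriched region, at nt 1620 to 1646, directly beyond the shorter rRNA gene. The lists of 5 tagged libraries split it into 2 abutting pieces. Its log2 enrichment, the higher of the pieces, was 5.34 and 6.08 with (+), 5.49 and 5.84 with C130Y and 5.85 and 4.35 with ΔRRM. The no-transgene library had 3.05 there, from 52 CLIP reads and 14 input reads, and so lay below all 6 tagged libraries. Form means were 5.71 ± 0.52, 5.66 ± 0.24 and 5.10 ± 1.06 (SD, n = 2 each), and the forms overlapped. WBGene00014456, at nt 1673 to 1701, was enriched in all 7 libraries as well. Its values were 4.26 and 1.80 with (+), 2.91 and 2.95 with C130Y, 4.63 and 2.72 with ΔRRM and 2.83 without a transgene, which lay inside the range of the tagged libraries. The third region enriched in all 7 libraries was at nt 3390 to 3421, where WBGene00014460 meets the start of ND2, a subunit of complex I. It had 3.12 and 1.57 with (+), 1.41 and 1.49 with C130Y, 3.28 and 2.12 with ΔRRM and 3.62 without a transgene, the last from 11 CLIP and 2 input reads. Some of its peaks were assigned to the tRNA gene and others to ND2.

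Enrichment in all 6 tagged libraries was found at 3 more tRNA regions. At nt 3281 to 3307, WBGene00014458 had 2.61 and 3.70 with (+), 1.47 and 1.11 with C130Y and 4.75 and 2.19 with ΔRRM, with no listed peak in the no-transgene library. The region at nt 9500 to 9532 in WBGene00014468 had 3.06 and 2.65 with (+), 1.76 and 1.91 with C130Y and 3.01 and 1.496 with ΔRRM, and again none was listed without a transgene. WBGene00014470, at nt 9610 to 9638, had 3.74 and 2.18 with (+), 1.199 and 1.28 with C130Y and 2.59 and 1.84 with ΔRRM. The no-transgene library listed a peak of 2.27 there, from 13 CLIP and 6 input reads, below the p-value minimum. In these 3 regions both C130Y values lay below both (+) values, and the ΔRRM values overlapped those of (+). C130Y was also below (+) at WBGene00014459, at WBGene00014461 and at the border of WBGene00014460 and ND2. This order did not hold at WBGene00014451, WBGene00014455, WBGene00014456 or WBGene00014471. The C130Y inputs held 3.03 and 1.67 M reads against 1.14 and 1.29 M in (+), and the part of that in these values was not tested.

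Other tRNA genes were uneven across the forms. WBGene00014471, at nt 10372 to 10399, had 3.85 and 3.13 with (+), from 43 and 32 CLIP reads over 2 and 3 input reads. In C130Y it had 3.90 and 2.86, from 36 and 45 CLIP reads over 6 input reads each. No peak was listed there in either ΔRRM library or without a transgene. It was the only region of the mitochondrial genome enriched in both (+) libraries and in neither ΔRRM library, 1 of 9 enriched in both (+) libraries. Among nuclear regions 44 of 248 were of this kind. A list gives no read number where it has no peak, and the ΔRRM and no-transgene CLIP libraries were the smaller ones, with 0.544, 0.893 and 0.192 M reads against 1.21 to 1.72 M in the other 4. That part was not tested. WBGene00014459, at nt 3331 to 3359, was enriched in 5 tagged libraries with values of 1.26 to 2.45 and had no listed peak in ΔRRM replicate 1. WBGene00014451 and WBGene00014461 held a peak in each of the 6 tagged libraries but at values of only −0.08 to 1.905 and −0.94 to 1.79. WBGene00014467 had 1 peak, in (+) replicate 1. The other 11 tRNA genes held none.

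All tRNA peaks shared a position. The midpoint of 64 of 64 peaks lay closer to the 3′ end than to the 5′ end of its gene, in all 11 genes and in the 7 libraries. The median midpoint stood at 0.697 of the gene's length from the 5′ end. At WBGene00014455 the peaks that reached the 3′ end stopped at nt 1646 in the tagged libraries and at nt 1645 without a transgene. The library without a tagged protein had 3 of the 64 peaks.

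**Figure D2:**
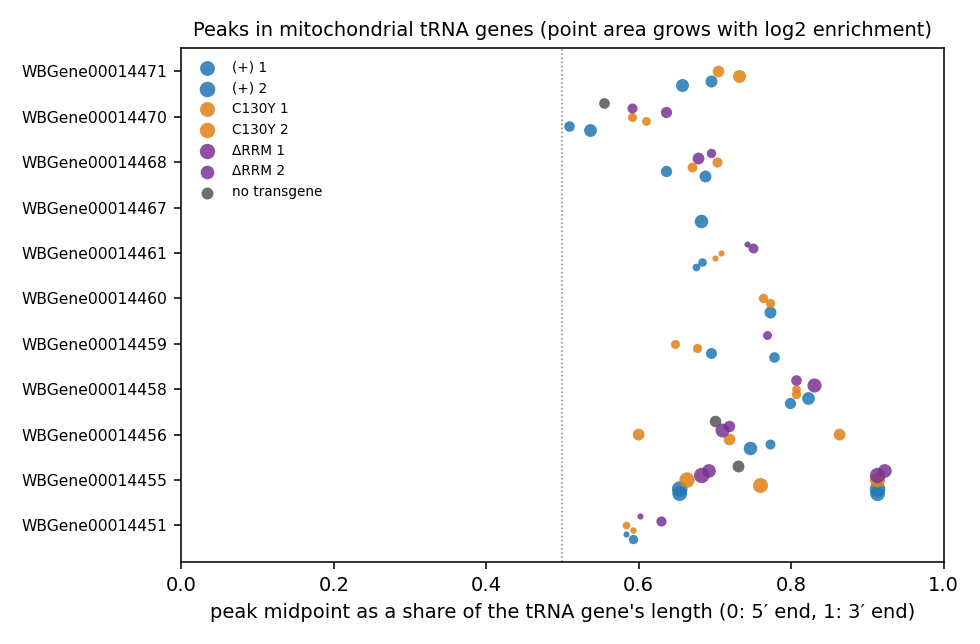
Midpoint of each listed tRNA peak as a share of the tRNA gene's length (horizontal axis, 0 at the 5′ end) for the 11 tRNA genes with a peak (vertical axis); points are peaks, coloured by form, and their area grows with log2 enrichment. All 64 points lie to the right of the dotted line that marks the middle of the gene.

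Protein-coding peaks had higher medians near the coding start than beyond it. Peaks with the midpoint within 100 nt after the start had median log2 enrichments of 2.05 and 0.71 with (+), 1.49 and 1.43 with C130Y, 3.47 and 2.88 with ΔRRM and 2.83 without a transgene. Peaks farther along had 0.81 and −0.69, 0.15 and 0.21, 1.96 and 1.12, and 0.35. The peaks near the start were higher in 7 of 7 libraries, by 1.56 ± 0.44 (SD, n = 7; exact sign-flip permutation test, p = 0.0156, adjusted p = 0.0273), a comparison chosen after the values were seen. It rested on 41 peaks near a start in 8 genes, with 3 to 8 in each library. Within genes the direction was the same. Of 35 pairs of a gene and a library with peaks in both places, 33 had the higher median near the start, and the exceptions were ND5 with (+) replicate 1 and in ΔRRM replicate 1.

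**Figure D3:**
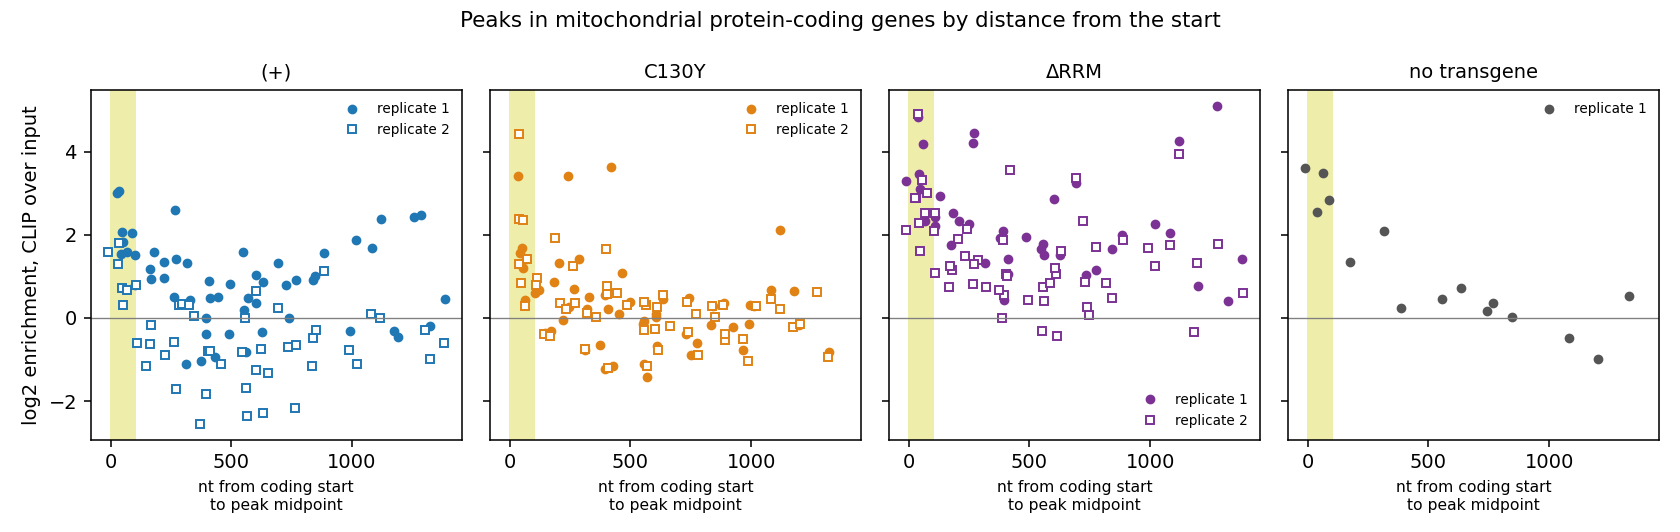
Log2 enrichment of each protein-coding mitochondrial peak (vertical axis) against the distance in nt from the coding start to the peak midpoint (horizontal axis), by form (panels) and replicate (symbols); the shaded band spans the first 100 nt. Peaks in the band had medians above those beyond it in all 7 libraries, including the library without a transgene.

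The order of the forms was read over all listed peaks, since named regions were chosen for enrichment in a form. The median of a gene's peaks was higher in both ΔRRM libraries than in every (+) and C130Y library that listed a peak for 6 of 12 coding genes, which were ATP6, COX1, COX2, ND1, ND2 and ND4, and not for the other 6. For ND2 this rested on how peaks at its border with WBGene00014460 were assigned. There (+) replicate 1 had 3.12, above the 2.12 of ΔRRM replicate 2, but its peak was assigned to the tRNA gene. The same order held for 1 of 2 rRNA genes and 0 of 7 tRNA genes, and no such count over nuclear genes is given here. Among the 15 coding regions that were enriched in some library but not named, both ΔRRM values lay above the listed (+) and C130Y values in 4.

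COX1, a catalytic subunit of cytochrome c oxidase, had a region at its start, at nt 7858 to 7910. Its values were 1.55 with (+) replicate 1 with none listed in replicate 2, 1.55 and 1.29 with C130Y, 3.47 and 2.28 with ΔRRM and 2.54 without a transgene. COX3, another subunit of that enzyme, had its start region at nt 5733 to 5763, with 1.58 and 0.67 with (+), 1.42 and 1.43 with C130Y and 2.32 and 2.52 with ΔRRM. No peak was listed there without a transgene. Both regions were described because they were enriched in both C130Y and both ΔRRM libraries, and the order of the forms in them is given as a description. The no-transgene value of COX1 lay between the ΔRRM values.

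Subunits of complex I, the entry point of electrons into the chain, carried the highest coding values and the lowest ones too. Peaks of ND5 ranged from −2.55 to 5.10 and those of ND1 from −2.29 to 3.36. In ND4 1 of 37 peaks was enriched and in ND1 3 of 33, against 17 of 55 in COX1. ND3 at nt 11373 to 11413 had 3.06 and 1.80 with (+), 3.40 and 4.41 with C130Y and 4.83 and 4.91 with ΔRRM. These rested on 10 to 44 CLIP reads over 1 to 4 input reads. ND5 had a region at nt 11725 to 11771 with 1.83 and 0.30 with (+), 1.19 and 2.36 with C130Y and 4.18 and 3.33 with ΔRRM. Farther along ND5, at nt 12789 to 12834, the values were 2.37 and −0.01, 2.11 and 0.22, and 4.25 and 3.95. No peak was listed without a transgene in these 3 regions. Both ND5 regions were described because they were enriched in both ΔRRM libraries, so their order of forms is no result. The highest single coding value lay still farther along ND5, at nt 12941 to 13014. It was 5.10 in ΔRRM replicate 1, from 12 CLIP reads over 1 input read. Other values there were 2.46 and −0.29 with (+), 0.63 with C130Y replicate 2 and 1.78 with ΔRRM replicate 2. ND1 differed in having a region enriched in the no-transgene library alone, at nt 1807 to 1895, with 2.83 from 16 CLIP and 5 input reads. (+) replicate 1 listed 2.05 there from 31 and 5 reads, C130Y listed 0.42 and 0.28, and (+) replicate 2 and both ΔRRM libraries listed none. A second ND1 region, at nt 2442 to 2469, had 1.33 and 0.23 with (+) and 3.25 and 3.36 with ΔRRM. It rested on 10 and 14 CLIP reads over 3 and 2 input reads in ΔRRM, and no C130Y or no-transgene peak was listed.

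The remaining named coding regions, most of which were also described because both ΔRRM libraries were enriched there, had ΔRRM values of 0.74 to 2.87. COX2, a subunit of cytochrome c oxidase, had 0.80 and 0.79 with (+), 0.59 and 0.80 with C130Y and 2.43 and 2.51 with ΔRRM at nt 9735 to 9778. Within ATP6, a subunit of ATP synthase, the region at nt 2828 to 2919 had 1.35 and −0.89 with (+), 0.26 and 0.37 with C130Y and 2.34 and 1.895 with ΔRRM. The other ATP6 region, at nt 3010 to 3076, had 1.41 and 1.01 with ΔRRM against at most 0.57 in the other tagged libraries. CYTB, the mitochondrially encoded subunit of complex III, had 1.74 and 1.24 with ΔRRM at nt 4652 to 4707, and 1.35 without a transgene from 8 CLIP and 7 input reads. In COX1 the regions at nt 8449 to 8501, 8708 to 8752 and 8906 to 8947 had ΔRRM values of 1.51 to 2.05. The middle of these was also enriched in both (+) libraries, at 1.56 and 1.13, and not in C130Y, at 0.37 and 0.31. Further along COX3 the region at nt 6255 to 6305 had 2.87 and 1.06 with ΔRRM. That at nt 5964 to 6025 had 2.09 without a transgene, above all tagged libraries, whose highest value was 1.32. The 4 longest peaks, of 75 to 89 nt, lay in ND1 and ATP6 in the (+) and no-transgene lists, and 3 peaks of 74 nt followed, in ND5, ATP6 and CYTB, of which that in ATP6 was from C130Y.

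The rRNA genes differed from each other. The annotation gives a shorter and a longer gene, which encode the RNAs of the small and the large subunit of the mitochondrial ribosome. Median log2 enrichment over peaks of the shorter gene was −0.29 and −1.65 with (+), 0.07 and 0.31 with C130Y, 2.20 and 1.25 with ΔRRM and −1.37 without a transgene. Peaks of the longer gene had −1.35 and −2.37, −0.49 and −0.19, −0.53 and −1.49, and −0.99. The shorter gene was enriched in 8 of 8 peaks in ΔRRM replicate 1 and 3 of 5 in replicate 2, in 1 of 8 with C130Y replicate 2, and in no peak of the other 4 libraries. With both thresholds, 15.7% and 5.22% of nuclear peaks were enriched in ΔRRM. With the log2 minimum alone, 85.9% and 63.6% of nuclear peaks passed in ΔRRM and 29.7% and 28.9% in (+). In C130Y these shares were 41.8% and 32.5%, and without a transgene 67.9%. The longer gene had 0 enriched of 69 peaks.

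The shorter gene lay above the longer in the 6 tagged libraries, by 1.06 and 0.73 with (+), 0.56 and 0.50 with C130Y and 2.74 and 2.74 with ΔRRM, and below it without a transgene, by −0.38. Over the 7 libraries the mean was 1.13 ± 1.18 (SD; exact sign-flip permutation test, p = 0.0312, adjusted p = 0.0438), and leaving out any 1 tagged library gave p = 0.0625, where 0.0312 is the smallest possible. The contrast in ΔRRM exceeded that in (+) by 1.85 and that in C130Y by 2.21, and the forms did not overlap (exact permutation test, p = 0.33, the smallest possible, adjusted p = 0.444). Both comparisons were chosen after the values were seen. These peaks were among the deepest, with median CLIP reads in the shorter gene of at least 733.5 to 3828 in the tagged libraries and 187.5 without a transgene.

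Relative to the nuclear median of the same library, the shorter gene of ΔRRM stood near 0. The differences were 0.11 and −0.04 there, −0.44 and −1.94 with (+), −0.76 and −0.23 with C130Y and −3.11 without a transgene. For the longer gene they were −2.63 and −2.78 with ΔRRM, −1.50 and −2.67 with (+), −1.32 and −0.73 with C130Y and −2.73 without a transgene. On this scale the shorter gene of ΔRRM stood level with nuclear peaks and above its values in the other forms, and the longer gene of ΔRRM stood below both C130Y libraries and (+) replicate 1, with (+) replicate 2 between its libraries. The gap between the rRNA genes does not change with this scale, since the same nuclear median is taken from both.

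**Figure D4:**
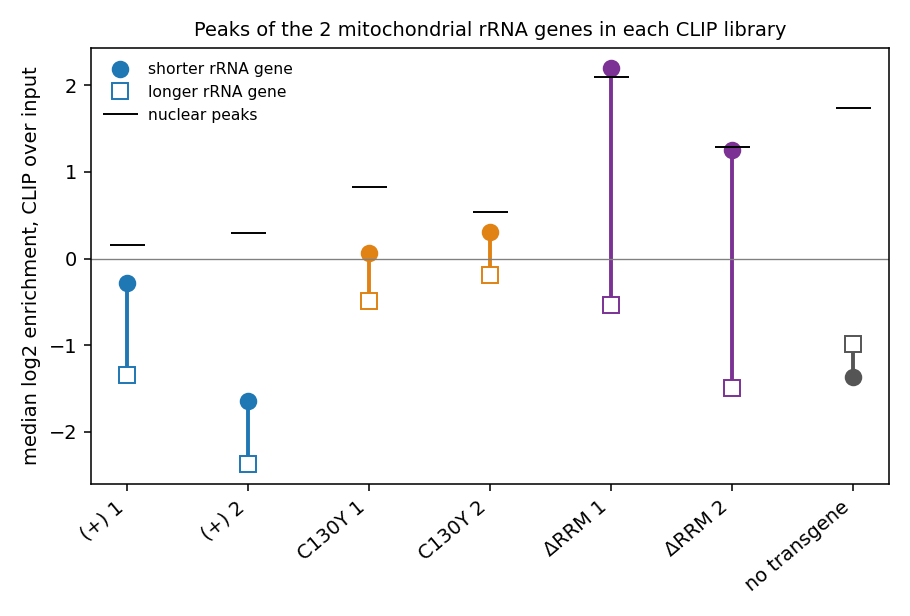
Median log2 enrichment (vertical axis) over peaks of the shorter rRNA gene (filled circles) and the longer rRNA gene (open squares) in each CLIP library (horizontal axis), joined by a line; black dashes are the median of nuclear peaks. The line is longest in the ΔRRM libraries, at 2.74 in each, and the order is turned in the no-transgene library, at −0.38.

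Enriched peaks of all libraries that overlapped were merged into 47 regions, which shows how far the forms shared them. Both (+) libraries were enriched in 9 regions, of 18 in either (50.0%, 95% Wilson interval 29.0% to 71.0%). C130Y had 11 of 19 (57.9%, 36.3% to 76.9%) and ΔRRM 22 of 42 (52.4%, 37.7% to 66.6%). The intervals of the 3 shares overlapped, while ΔRRM had the most regions. It also had the most among 2691 nuclear regions formed in the same way, with 664 against 248 in (+) and 450 in C130Y. Both ΔRRM libraries were enriched in 46.8% of the mitochondrial and 24.7% of the nuclear regions, and both (+) libraries in 19.1% and 9.22%. Of all 47 regions, 10 were in tRNA genes and 32 in protein-coding genes. In (+) 7 of the 9 regions were in tRNA genes and in C130Y 7 of the 11, against 5 of the 22 with ΔRRM. Of those 22, 15 were protein-coding and 2 were in the shorter rRNA gene. The region at the border of WBGene00014460 and ND2 is counted as protein-coding here. The 2 rRNA regions, at nt 991 to 1035 and nt 1499 to 1555, had 2.29 and 1.25, and 2.19 and 1.37, in ΔRRM. In (+) they had −0.29 and −2.22, and 0.02 and −1.82.

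All 3 forms shared 6 regions, which were the tRNA regions already named in WBGene00014455, WBGene00014456, WBGene00014458, WBGene00014468 and WBGene00014470 and that at the border of WBGene00014460 and ND2. (+) and C130Y shared 8, (+) and ΔRRM 7, and C130Y and ΔRRM 9. ΔRRM had 10 regions that were enriched in neither (+) library, of which 8 were protein-coding and 2 rRNA. In 9 of these 10 a (+) library listed a peak above 0 that missed a threshold. The 10 were 45.5% of the 22 ΔRRM regions, and among nuclear regions formed in the same way 400 of 664 were enriched in both ΔRRM libraries and in neither (+) library, or 60.2%. Of the 6 regions enriched without a transgene, 4 were also enriched in both ΔRRM libraries. The same regions were enriched in both C130Y libraries, and all but the one at the start of COX1 in both (+) libraries. ΔRRM had 22 regions in all, C130Y 11 and (+) 9.

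**Figure D5:**
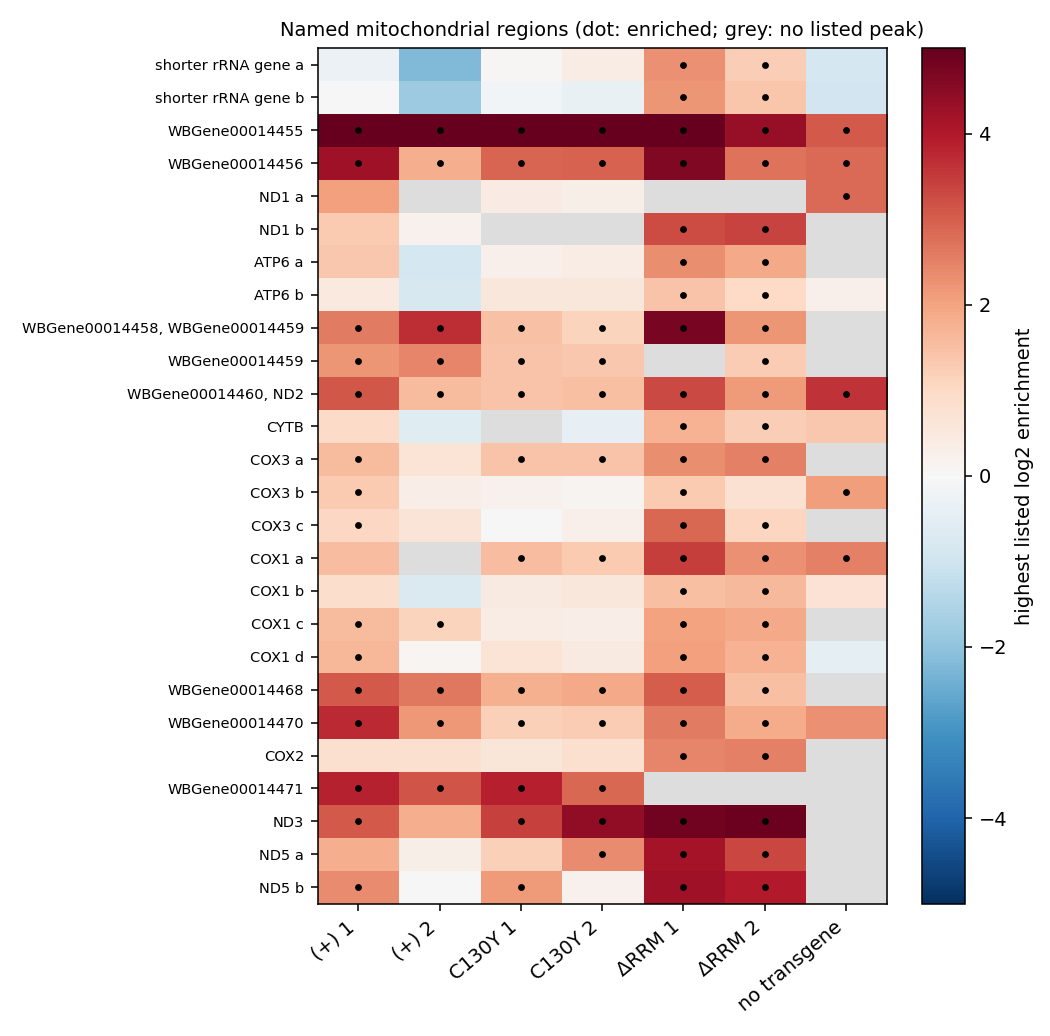
Highest listed log2 enrichment (colour, limited to 5 in either direction) in the named mitochondrial regions (rows, in order along the genome) and the CLIP libraries (columns); dots mark enriched peaks and grey marks no listed peak. Rows are regions chosen for enrichment in both libraries of a form or without a transgene, so they do not show how often a form is enriched. The row of WBGene00014471 is grey in the ΔRRM and no-transgene columns, and 3 rows have dots in all 7 columns.

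Over all mitochondrial peaks, ΔRRM had the largest enriched share in both of its libraries. The share was 18.4 ± 6.70% with (+), 19.0 ± 1.36% with C130Y and 53.0 ± 20.1% with ΔRRM (mean ± SD, n = 2 each). Nuclear shares were higher in ΔRRM too, at 15.7% and 5.22%, against 1.81% and 2.52% with (+) and 4.395% and 2.60% with C130Y. For the mitochondrial share ΔRRM was 34.5 percentage points above (+) and 33.9 above C130Y without overlap (exact permutation test, p = 0.33, the smallest possible, adjusted p = 0.444). The difference between C130Y and (+) was 0.601 points with overlapping libraries (exact permutation test, p = 1), and single differences between their libraries ranged from −5.10 to 6.30 points. In median log2 enrichment ΔRRM was 1.55 above (+) and 1.44 above C130Y, again at p = 0.33 in the exact permutation test. The nuclear medians were higher in ΔRRM as well. Set against the nuclear median of its library, the mitochondrial median was −0.13 ± 1.15 with (+), −0.48 ± 0.30 with C130Y and −0.05 ± 0.03 with ΔRRM (mean ± SD, n = 2 each), and the ΔRRM libraries lay inside the range of (+). The smaller CLIP totals of ΔRRM move with these differences too, and their part was not tested.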

How the data were processed

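The authors deposited a peak list for each CLIP library. The values deposited by the authors are a log2 enrichment over input and a −log10 p-value for every peak, and the lists differ between libraries as separate calls would. Per the submitters' processing notes, the build was ce10 and the tools were cutadapt 1.9.1, SAMtools 1.4.1 and STAR 2.4.0i. The program that called the peaks was not given in the sources used here. Lists hold no read numbers. The log2 values fall on the steps of whole reads, so library totals and reads were recovered as the CLIP to input ratio, with at least 1 input read. Reads were accepted where Fisher's exact test (a read number or expected number under 5) or a Yates-corrected chi-square test gave the deposited p-value within 0.001 or 1%, which held for 95.2% to 99.9% of peaks with a p-value. Elsewhere, at the cap of 400 or with a p-value of 1, the reads given are the smallest the ratio allows. Recovery was tested on simulated data. Totals were 0.192 to 1.72 M CLIP and 0.429 to 3.03 M input reads. Intervals cover counting error only.

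Peaks were assigned to the gene of Ensembl release 115 that held their larger part, with protein-coding symbols from RefSeq, both of WBcel235. The mitochondrial record is taken to be the same in both builds, which was not checked. Enriched peaks overlapping by at least 1 nt were merged. The regions named were those enriched in both libraries of a form or without a transgene, with the 5 longest peaks and those tied with them, and a few further tRNA genes named to account for all with a peak. Values were compared within libraries by exact two-sided sign-flip permutation and between forms by exact permutation over libraries, with Benjamini-Hochberg adjustment over 7 and 12 comparisons. Libraries were weighted equally. The members and lists were chosen with earlier results of these data known. Python 3.11.15, pandas 2.3.3 and SciPy 1.17.1 were used. Alternatives were other thresholds, summaries, overlaps, and libraries left out.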

Additional observations from a re-analysis of the deposited data

Results flagged for a closer look

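The median over peaks of the shorter rRNA gene differed between forms in sign. This median log2 enrichment was −0.29 and −1.65 in the (+) libraries, and above 0 in every library of the other tagged forms, with 0.07 and 0.31 in C130Y and 2.20 and 1.25 in ΔRRM. Single peaks were mixed. Those above 0 were 1 of 7 and 0 of 8 in (+), 4 of 7 and 5 of 8 in C130Y, and all in ΔRRM. The mean difference from (+) was 1.16 for C130Y and 2.69 for ΔRRM. These differences were noticed because all libraries of a form lay on the same side of 0, and they were not tested beyond the sign, since 2 against 2 libraries cannot go below p = 0.33 in an exact permutation test. Relative to the nuclear median of the same library, the C130Y values of −0.76 and −0.23 overlapped the (+) values of −0.44 and −1.94, and the ΔRRM values of 0.11 and −0.04 lay above both.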

How the results depend on the processing

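Of 246 recomputed values, 210 kept their direction and side of the threshold or stayed within the stated tolerance. A further 13 no longer passed by unadjusted p, 6 of them for peak length and 6 for the rRNA contrast. Of the rest, 1 newly passed, 11 reversed and 11 counts moved by over 1.5 times. The mitochondrial minus nuclear median log2 reversed to 0.15 with at least 10 input reads, and ranged from −0.62 to −0.22 with each library left out, passing without (+) replicate 1 (exact permutation p = 0.0312). The difference in enriched share reversed to −11.0 points with no minimum on the p-value and fell short of the threshold at 10.9 points with at least 10 input reads. Peak length ranged from −2.92 to −1.92 nt and the rRNA contrast from 0.87 to 1.39 with a library left out. Both passed by unadjusted p when the no-transgene library was left out (exact sign-flip permutation p = 0.0312, the smallest that 6 libraries allow). Neither passed when a tagged library was left out, at p of 0.0625 in the same test for the rRNA contrast. The cause was not tested.

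The C130Y minus (+) differences had no stable sign. The share of listed peaks was −0.730 points over enriched peaks alone and −0.0279 to 0.04997 with a library left out. The median log2 was −0.34 relative to the nuclear median and −0.63 to 0.86 with a library left out. The enriched share was −3.45 points at a log2 of at least 3, −1.68 at a −log10 p of at least 5 and −4.13 to 5.34 with a library left out. The cause was not tested.

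Regions enriched in both libraries fell to 2 in (+), 2 in C130Y and 5 in ΔRRM at a log2 of at least 3, with 1 in all forms and 3 in ΔRRM alone of ΔRRM and (+). With a library left out they numbered 9 to 18 in (+), 11 to 15 in C130Y and 22 to 42 in ΔRRM, 10 to 27 in ΔRRM and in no (+) library, and 1 to 2 in (+) and in no ΔRRM library. The highest were 18 without (+) replicate 2 and 42 without ΔRRM replicate 2, where 1 library stands for its form.

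With the replicate number as a block, the ΔRRM minus (+) difference in median log2 stayed 1.55 at an exact permutation p of 0.5, the smallest 2 pairs allow. Deviations of same-numbered libraries over 30 regions correlated at 0.107, −0.366 and 0.106, so the numbers were not taken to pair libraries. The comparison of strands could not be run, since no mitochondrial peak lay on the minus strand. Depth limits the no-transgene library most, with 31 peaks and 0.192 M CLIP reads.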
